A study of Mus musculus with 32 samples.

Results

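Contextual fear conditioning was compared with exposure to the same chamber without shocks in the hippocampus of mice that had received vehicle. The comparison rests on 8 of the 32 libraries of the series, 4 from conditioned mice (CFC) and 4 from context mice, taken as the libraries that the labels name as hippocampus and vehicle. Each library is polyadenylated RNA from the hippocampus of a single hemisphere of 1 male C57BL/6J mouse aged 12 weeks. All 8 mice had been injected intraperitoneally with vehicle, the solvent of the class I histone deacetylase inhibitor CI-994, 1 h before behaviour. Conditioned mice received 2 foot shocks of 0.2 mA lasting 1 s each, context mice received 0 shocks, and tissue was collected 1 h after behaviour in both groups. The model also holds 8 hippocampus libraries of mice that were given CI-994 at 30 mg/kg instead, 4 after CFC and 4 after context, which share the estimate of the spread. Striatum libraries of the same 4 combinations of drug and behaviour, 4 of each, enter where the regions are compared. Cage mates shared their behaviour, so effects of cage and of conditioning cannot be told apart. Mice of both groups were injected and placed in the chamber, and no home-cage group is among the samples analysed here.

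Neurons that fire strongly during learning switch on immediate early genes within minutes, through calcium entry, MAP kinase and CREB signalling. The first wave encodes transcription factors such as Fos, Egr1 and Npas4, and proteins that act at the synapse, such as Arc and the short form of Homer1. The hippocampus encodes the place in which a shock is received, and exploring an unfamiliar place is itself a known inducer of these genes there. Because the tissue is bulk hippocampus, fewer cells of a type and less RNA per cell cannot be told apart in any value below.

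No gene was called changed by conditioning. In the edgeR quasi-likelihood test on 18261 genes, 0 genes (0%) passed an adjusted p of 0.05, and the smallest adjusted p was 0.121. At an unadjusted p under 0.05 there were 188 genes, of which 100 were higher in CFC (0.548% of the genes tested) and 88 were lower (0.482%). DESeq2 called 1 gene, and limma-voom called 0. With a term for replicates 1 and 2 against replicates 3 and 4, edgeR again called 0 genes, with 141 higher (0.772%) and 112 lower (0.613%) at an unadjusted p under 0.05. In total, 1.03% of genes reached that p without the term and 1.39% with it. Both lie under the share of 0.05 that no effect at all would give. The p-values may thus be too large and the intervals too wide, and the reason was not tested. The 4 CFC libraries all lay above the 4 context libraries for 79 genes (0.433%) and all lay below them for 72 genes (0.394%), on TMM-scaled log2 CPM. For comparison, 3612 genes of the same 16 hippocampus libraries were called between CI-994 and vehicle after context exposure.

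Total counts ran from 27002334 to 35246359 in the context libraries and from 29223680 to 36670767 in the CFC libraries. The labels describe separate mice, and no pair of libraries within a group was a copy. Libraries numbered 1 and 2 stood apart from those numbered 3 and 4. A term for the replicate set was called for 6528 genes over the 16 hippocampus libraries and for 3144 genes over the 8 vehicle libraries. The labels name no batch, so what separates the sets was not tested, and each set holds 2 libraries of each group. Adding the term brought the median standard error of a log2 fold change from 0.135 to 0.108.

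The AP-1 genes, whose Fos and Jun family products pair to bind DNA, gave log2 fold changes (CFC over context) from -0.16 to 0.45. Fos (chromosome 12, 85473890 to 85477273, mm10) stood at 17.2, 9.37, 7.93 and 7.48 CPM (counts relative to 1000000 of the library total) in context replicates 1 to 4. In CFC replicates 1 to 4 it stood at 17.9, 12.3, 11.8 and 7.61 CPM. Replicate 1 was the highest and replicate 4 the lowest in both groups, and the groups overlapped over nearly their whole range. The log2 fold change of Fos was 0.24 ± 0.24 (SE, n = 4 against 4), with a 95% interval from -0.27 to 0.74, whose upper bound is 1.67-fold. With the replicate-set term the upper bound was 1.61-fold. Within replicates 1 and 2 the log2 fold change was 0.19, and within replicates 3 and 4 it was 0.31.

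Junb, a partner of Fos that can restrain Jun, was the AP-1 gene with the highest log2 fold change, at 0.45 ± 0.44 (SE). Its context libraries held 8.51, 4.00, 2.43 and 1.90 CPM, and its CFC libraries held 8.36, 8.66, 3.00 and 3.25 CPM. The high values belong to replicate 1 of context and to replicates 1 and 2 of CFC. The 95% interval of the log2 fold change ran from -0.48 to 1.38, and its upper bound came to 0.93 once the replicate sets had their own term. Fosb, which yields a long-lived truncated product after repeated activity, had 9.72 ± 2.64 CPM (SD, n = 4) in context and 10.7 ± 3.44 CPM in CFC. Jun and Fosl2 had negative log2 fold changes, -0.16 and -0.15. In both genes context replicate 1, at 70.0 and 78.7 CPM, was the highest of the 8 libraries.

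**Figure D1:**
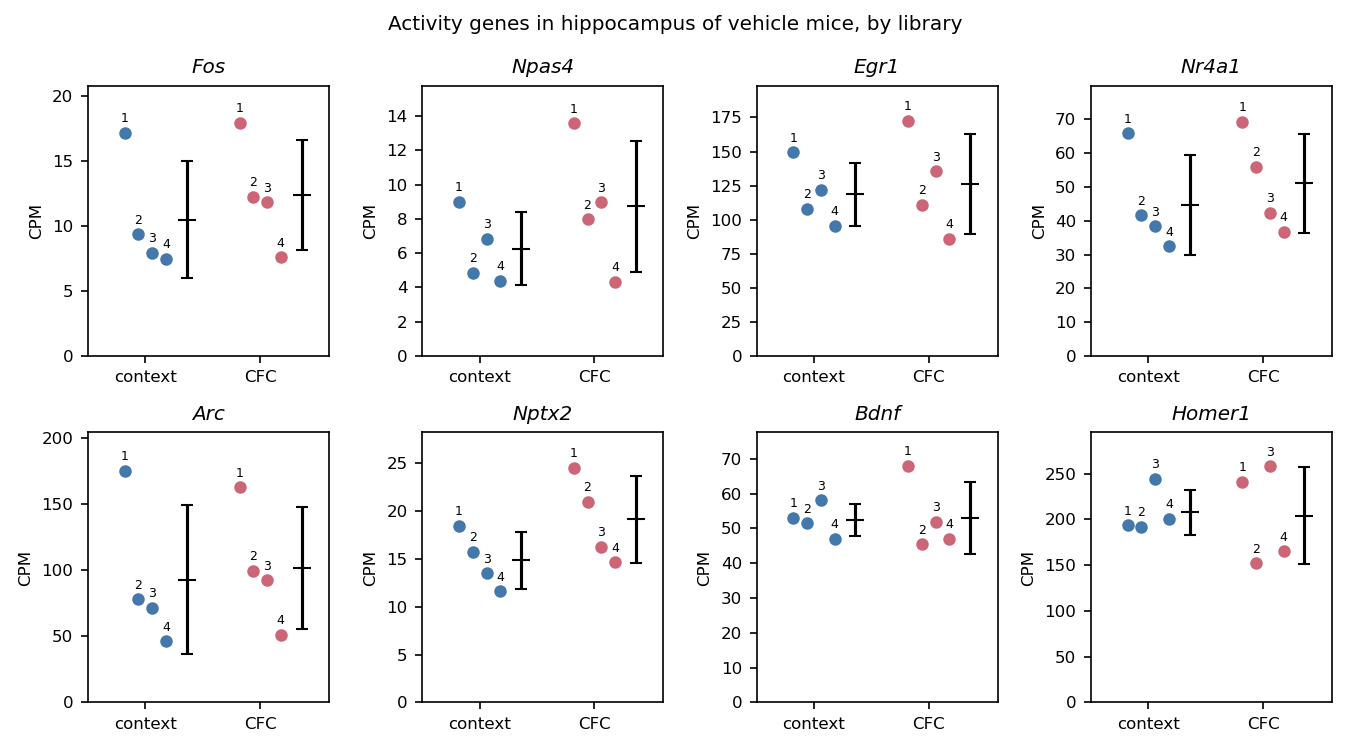
Levels (CPM, linear axis from 0) of 8 activity genes in each vehicle hippocampus library, context in blue and CFC in red. Numbers are replicate numbers, and the bar beside each group is the mean with its SD (n = 4). The groups overlap in every panel, and replicate 1 is the highest CFC library in 7 of the 8 panels.

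The Egr genes, zinc finger factors that bind GC-rich promoters, had log2 fold changes from 0.07 to 0.14. Egr1 held 149, 108, 122 and 95.6 CPM in the context libraries and 173, 111, 136 and 86.1 CPM in the CFC libraries. The CFC group had both the highest and the lowest of these 8 values. Its log2 fold change was 0.08 ± 0.17 (SE), with a 95% interval of 0.824-fold to 1.36-fold. Egr3, which was measured most tightly of the 24 core activity genes (SE 0.09), had a 95% interval from 0.917-fold to 1.21-fold. For Egr2, at 4.63 ± 1.86 CPM in context and 5.13 ± 2.24 CPM in CFC (SD, n = 4), the interval was wider, from 0.700-fold to 1.73-fold. Egr4 had 4.08 ± 0.648 CPM in context and 4.31 ± 1.11 CPM in CFC.

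The Nr4a genes encode orphan nuclear receptors that are induced by cAMP signalling and take part in memory consolidation. Nr4a1 held 65.9, 41.6, 38.4 and 32.5 CPM in context and 69.3, 56.0, 42.3 and 36.7 CPM in CFC. The 2 libraries numbered 1 were the highest of the 8, and the groups overlapped. The log2 fold change was 0.19 ± 0.20 (SE), and the upper bound was 1.54-fold, or 1.38-fold with the replicate-set term. Nr4a2 had a log2 fold change of 0.02 and Nr4a3 one of -0.11. Their 95% intervals were 0.807-fold to 1.27-fold and 0.749-fold to 1.14-fold.

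Npas4, a neuron-specific factor that answers to calcium entry and is required for contextual memory, had the highest log2 fold change of the 24 genes. It lies on chromosome 19 from 4984355 to 4990316 (mm10). Its context libraries held 8.99, 4.85, 6.84 and 4.39 CPM, and its CFC libraries held 13.6, 7.97, 8.99 and 4.34 CPM. CFC replicate 1 was the highest library and CFC replicate 4 the lowest. Npas4 had a log2 fold change of 0.47 ± 0.28 (SE), with a 95% interval of 0.919-fold to 2.07-fold and an adjusted p of 1.0 in edgeR. Within replicates 1 and 2 it was 0.64, and within replicates 3 and 4 it was 0.22. Over the fits that left out 1 library each, it ran from 0.16 to 0.69.

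Arc, which links neuronal activity to the removal of AMPA receptors from the synapse, varied widely among mice of the same group. Arc (chromosome 15, 74669083 to 74672570) held 175, 78.1, 71.7 and 46.5 CPM in the context libraries. In the CFC libraries it held 163, 99.6, 92.2 and 51.1 CPM. The 2 libraries numbered 1 were far above the other 6, and the 2 numbered 4 were the lowest. The log2 fold change was 0.12 ± 0.35 (SE), and the interval of 0.655-fold to 1.82-fold narrowed to 0.784-fold to 1.56-fold with the replicate-set term. Its direction depended on single libraries: it was -0.20 without CFC replicate 1, -0.10 without context replicate 4 and 0.62 without context replicate 1.

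Nptx2, a secreted pentraxin that gathers AMPA receptors on interneurons, was the 1 core gene of 24 with an unadjusted p under 0.05. It lies on chromosome 5 from 144545902 to 144557478 (mm10). Context libraries held 18.4, 15.7, 13.5 and 11.6 CPM, and CFC libraries held 24.5, 20.98, 16.2 and 14.7 CPM. CFC replicates 1 and 2 were the 2 highest libraries and context replicates 3 and 4 the 2 lowest, and the groups overlapped between them. Its log2 fold change of 0.36 ± 0.16 (SE) had a 95% interval of 1.02-fold to 1.61-fold (edgeR unadjusted p = 0.0348, adjusted p = 1.0). With the replicate-set term the interval was 1.10-fold to 1.47-fold (unadjusted p = 0.00252, adjusted p = 1.0). Nptx2 had a log2 fold change of 0.42 within replicates 1 and 2 and 0.28 within replicates 3 and 4. Leaving out 1 library at a time gave 0.21 to 0.47.

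The other secreted and synaptic core genes had smaller differences. Bdnf, the neurotrophin that strengthens active synapses, had 52.4 ± 4.59 CPM in context and 53.1 ± 10.3 CPM in CFC (SD, n = 4), with bounds of 0.822-fold and 1.23-fold. Homer1, a scaffold of metabotropic glutamate receptors, held 194, 192, 244 and 201 CPM in context and 241, 152, 258 and 165 CPM in CFC. The CFC libraries thus fell on both sides of the context libraries. The counts join all Homer1 transcripts, so the short activity-induced form was not measured apart. Inhba, the activin subunit, had an interval of 0.749-fold to 1.58-fold, and Ptgs2, the inducible prostaglandin synthase, a log2 interval of -0.41 to 0.32.

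Among the remaining rapid-response genes, Ier2 had a log2 fold change of 0.38 ± 0.32 (SE) at about 1 CPM. It held 1.45, 0.926, 0.575 and 0.754 CPM in context and 1.42, 1.64, 0.696 and 1.15 CPM in CFC. The growth-arrest gene Btg2 had 15.2 ± 4.41 CPM in context and 17.2 ± 2.85 CPM in CFC. Dusp1, a phosphatase that switches off MAP kinases, had 8.71 ± 2.30 CPM in context and 9.46 ± 0.424 CPM in CFC. The salt-inducible kinase gene Sik1 and the clock gene Per1, both direct targets of CREB, had log2 fold changes of 0.07 and 0.05. In both genes context replicate 1 was the highest library, at 14.7 CPM for Sik1 and 78.1 CPM for Per1.

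**Figure D2:**
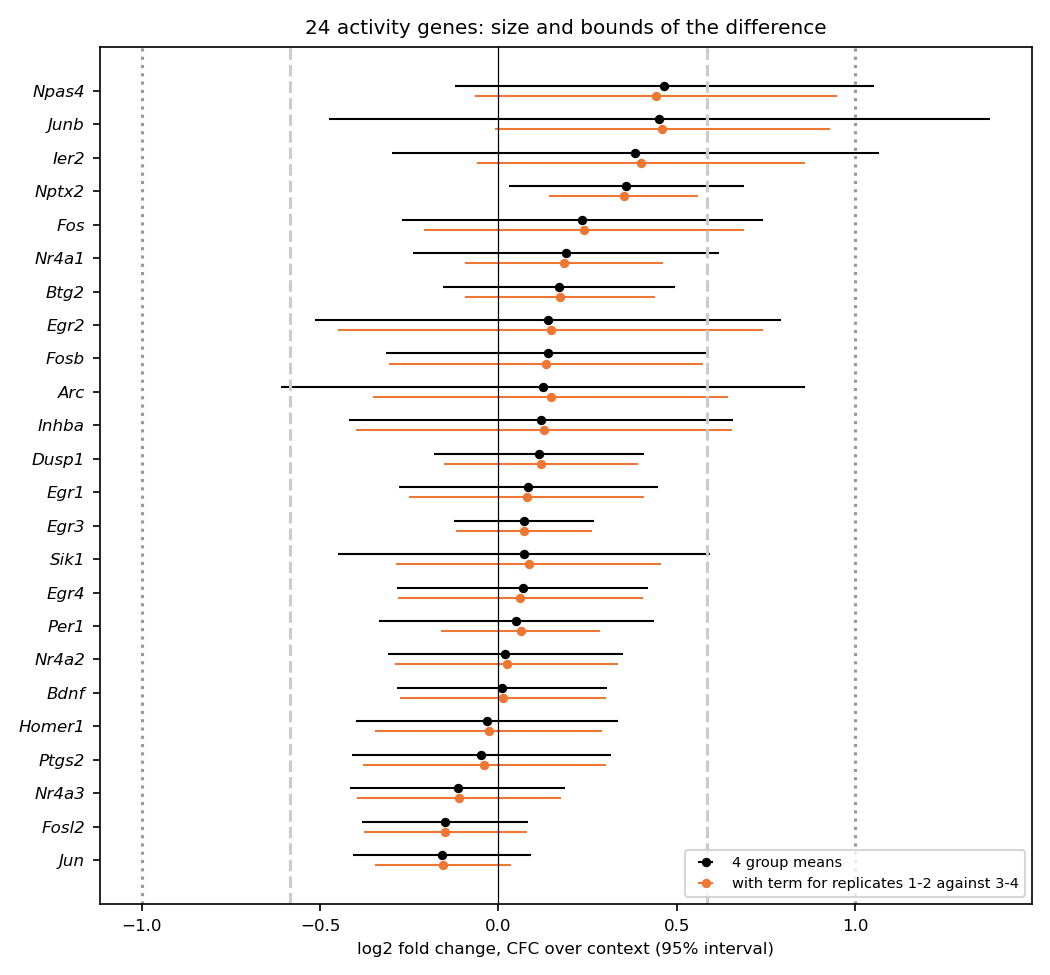
Log2 fold change (CFC over context) with its 95% interval for the 24 core activity genes, from the fit of 4 group means (black) and with the replicate-set term (orange). Dashed lines mark 1.5-fold and dotted lines 2-fold in either direction. All intervals but those of Nptx2 include 0, and Npas4, Junb and Ier2 reach past 2-fold in the black fit.

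Over the 24 core genes, 19 log2 fold changes were positive and 5 negative, with a median of 0.10 in both fits and a range from -0.16 to 0.47. The median over all 18261 genes was 0.00, and 9281 of them were positive. For 0 of the 24 genes did the groups separate without overlap. The 24 genes share regulators and mice, so their common sign is a description and not 24 independent observations. The 95% interval lay within 2-fold in either direction for 21 of the 24 genes and within 1.5-fold for 13. Npas4, Junb and Ier2 were the 3 genes whose interval did not stay within 2-fold. With the replicate-set term these counts were 24 and 17. Over all genes tested the interval stayed within 2-fold for 91.8% and within 1.5-fold for 73.1%. Among the 10295 genes over 3 log2 CPM these shares were 99.4% and 96.2%.

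In both vehicle groups the core genes were mostly highest in replicate 1 and lowest in replicate 4. Context replicate 1 was the highest context library for 18 of the 24 genes, and context replicate 4 was the lowest for 17. CFC replicate 1 was the highest CFC library for 17, and CFC replicate 4 was the lowest for 17. In the CI-994 groups the highest values were spread over replicates 1 to 3. Replicate 1 was the highest for 6 genes after context and for 8 after CFC, and replicate 4 for 1 gene in each. The lowest CI-994 library was replicate 1 for 8 genes after context and 0 after CFC, and replicate 4 for 5 and 9. What sets the level of a replicate number was not tested.

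**Figure D3:**
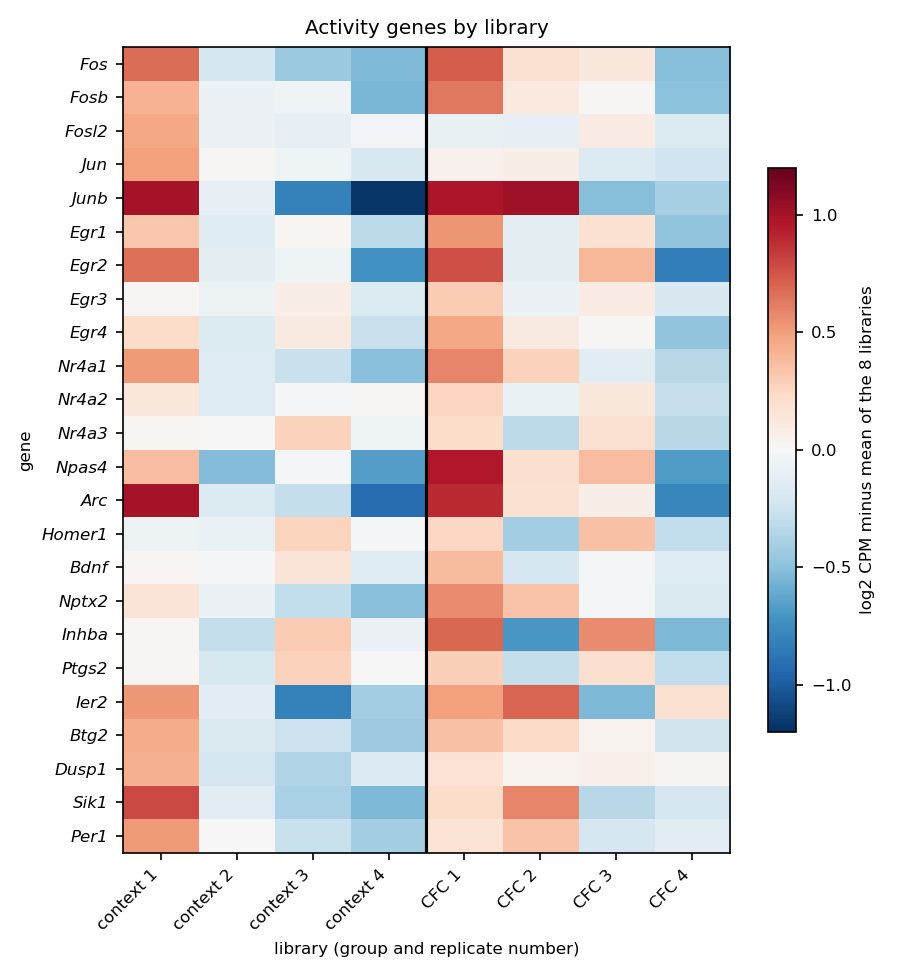
Heat map of the 24 core activity genes (rows) in the 8 vehicle libraries (columns), as log2 CPM minus the gene's mean over the 8 libraries, red above and blue below. Columns for replicate 1 are mostly red and those for replicate 4 mostly blue on both sides of the line that divides context from CFC.

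The wider activity lists gave the same picture, with 0 members called in any of them by edgeR. In the group of Egr, Nr4a and Npas4 factors, 0 of 10 members reached an unadjusted p under 0.05 and the median log2 fold change was 0.07. The 8 AP-1 genes tested had a median of 0.13, again with 0 members at that p. Of 29 other immediate early genes, 18 were positive with a median of 0.07. At an unadjusted p under 0.05, 0 were higher and 1 was lower, and with the replicate-set term 2 were higher and 1 lower. The lower gene in both fits was Ier3, an inhibitor of cell death that is induced by stress signals. Context replicate 1 held 6.58 CPM of it, against 1.11, 1.66 and 1.57 CPM in the other context libraries. The CFC libraries held 1.03, 2.09, 1.48 and 0.927 CPM. The log2 fold change was -1.01 with context replicate 1 and -0.11 without it. The 2 higher genes with the replicate-set term, named after their values were seen, were Csrnp1, a nuclear protein, and Errfi1, an inhibitor of the EGF receptor (log2 fold changes of 0.30 and 0.20). Errfi1 held 52.4 to 61.6 CPM in context and 66.6 to 68.3 CPM in CFC, without overlap. Over all genes tested, 0.433% lay above without overlap. With the replicate-set term, 0.772% of all genes were higher and 0.613% lower at an unadjusted p under 0.05. Of 40 synaptic and secreted effectors, 25 were positive, with a median of 0.03 and a range from -0.21 (Crh, the stress peptide corticotropin-releasing hormone) to 0.38 (Arl4d, a small GTPase). Nptx2 was the 1 effector at an unadjusted p under 0.05.

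Genes that feed back on MAP kinase had a median log2 fold change of 0.02 over 19 members. At an unadjusted p under 0.05, 0 were higher and 1 was lower, and with the replicate-set term 2 were higher (Dusp14 and Rasl11b, the latter named after its values were seen) and 1 was lower. The lower gene in both fits was Spry4. Over all genes tested with that term, 0.772% were higher and 0.613% lower at that p. Spry4, an inhibitor of growth factor signalling, was the lowest at -0.22, with 17.8 ± 1.01 CPM in context and 15.4 ± 2.58 CPM in CFC (SD, n = 4). The MAP kinase phosphatase gene Dusp14 was the highest at 0.22. The machinery upstream of the activity genes also lay near 0. The 26 genes of CREB, cAMP and their coactivators had a median of 0.00, the 19 CaM kinase and calcineurin genes 0.03, the 39 glutamate receptor and scaffold genes 0.00 and the 21 GABA genes -0.01. For all members of the CREB, CaM kinase and GABA lists the 95% interval stayed within 1.5-fold, and so it did for 33 of the 39 glutamate genes. Over these 4 lists 0 genes reached an unadjusted p under 0.05, and 1 did with the replicate-set term, the AMPA receptor auxiliary subunit Cacng2 (-0.11, named after its values were seen). The median of 6 neurotrophin and receptor genes was -0.07.

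Genes that answer to stress hormones showed no called member either. Of 23 glucocorticoid-responsive genes, 18 had positive log2 fold changes, with a median of 0.10 and 0 members at an unadjusted p under 0.05. With the replicate-set term 1 member was higher at that p, against 0.772% of all genes tested. It was Errfi1, already counted among the immediate early genes. Their range ran from -0.61 for Lcn2, an iron-binding acute-phase protein, to 0.53 for Angptl4, an inhibitor of lipoprotein lipase. In both genes single libraries stood out. Lcn2 held 19.3 CPM in context replicate 1 and 12.0 CPM in CFC replicate 2, against 0.148 to 2.27 CPM in the other 6 libraries. Angptl4 held 9.92 CPM in CFC replicate 2 and 1.24 to 4.20 CPM in the others. Medians were 0.00 for 18 heat shock genes, 0.01 for 21 circadian clock genes and 0.02 for 11 histone deacetylase genes, with 0 members of these 3 lists at that p. The clock genes ranged from -0.07 (Hlf) to 0.19 (Ciart). Among 11 inflammatory genes the median was 0.05.

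**Figure D4:**
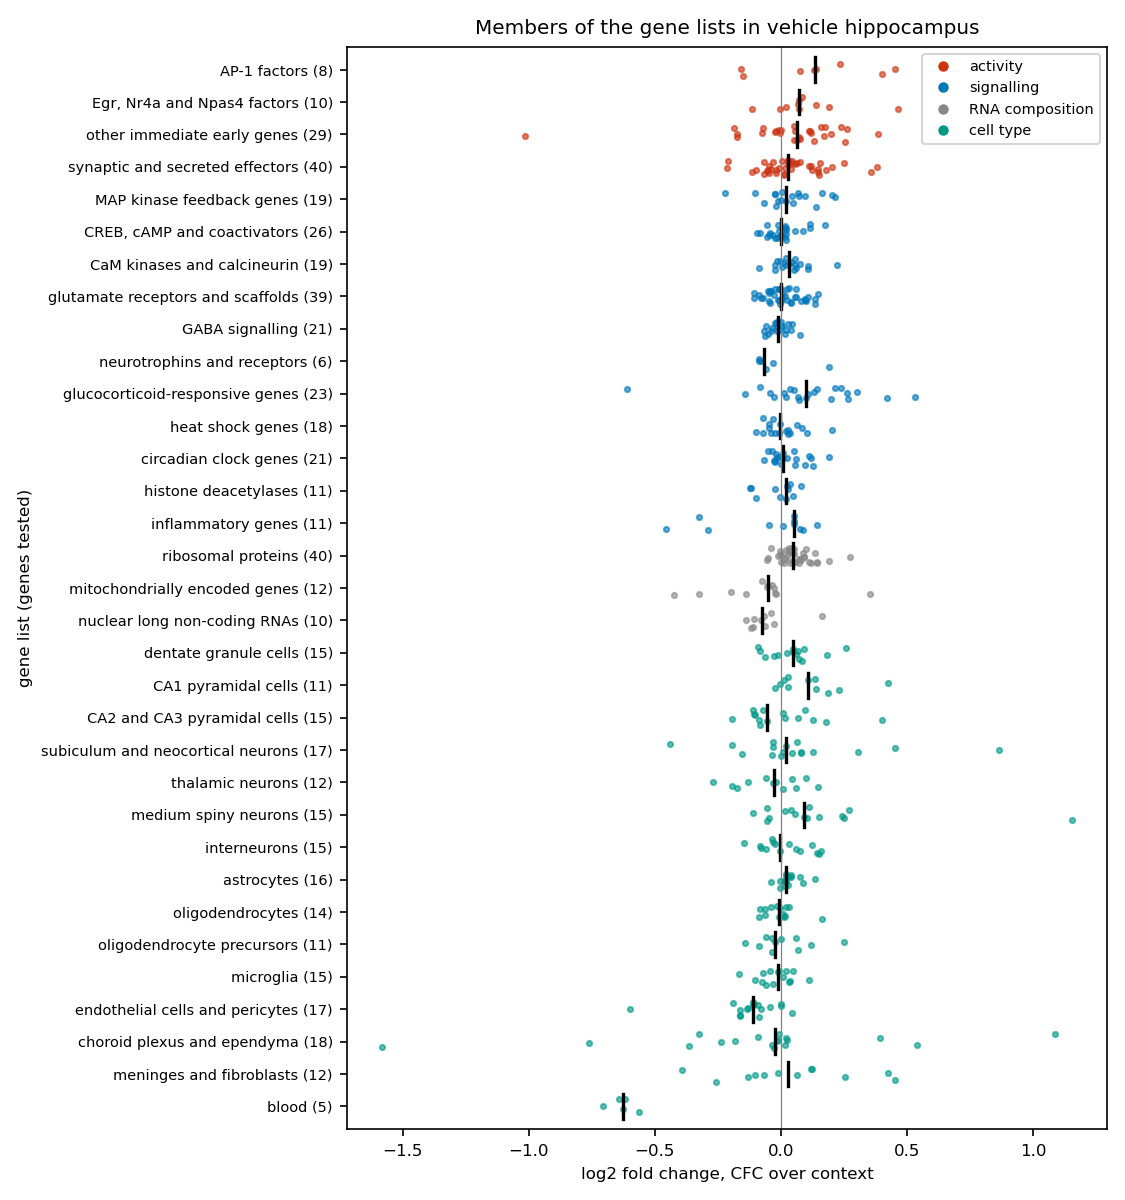
Log2 fold change (CFC over context) of each tested member of the 33 gene lists, 1 point per gene, with the list median as a black bar and the number of genes tested in parentheses. Colours give the kind of list, and vertical scatter within a row has no meaning. The 4 activity lists at the top have medians from 0.03 to 0.13, and the 5 blood genes at the bottom lie at -0.56 and below.

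Markers of hippocampal cell types had 0 called members in each list. Medians were 0.05 for 15 dentate granule cell genes, 0.11 for 11 CA1 genes and -0.06 for 15 CA2 and CA3 genes. Prox1, which defines granule cells, held 164 to 201 CPM in context and 162 to 207 CPM in CFC, so the labelled tissue carried its defining marker in every library. The CA1 marker Fibcd1 held 147, 167, 100 and 107 CPM in context and 143, 214, 115 and 141 CPM in CFC. It was higher at an unadjusted p under 0.05 with the replicate-set term and not in the fit of group means. Cacng5, an AMPA receptor auxiliary subunit that marks CA2, was higher in CFC at an unadjusted p under 0.05 and not after adjustment, with 10.5 ± 0.635 CPM in context and 13.9 ± 2.97 CPM in CFC. The medians for astrocytes, oligodendrocytes, their precursors, microglia and interneurons lay between -0.02 and 0.02.

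Markers of cells from outside or beside the hippocampus varied more. All 5 blood genes had negative log2 fold changes, from -0.71 (Hba-a1) to -0.56 (Hbb-bs), with 0 at an unadjusted p under 0.05. Their summed level was 94.9 to 204 CPM in context and 67.4 to 150 CPM in CFC. Of 17 endothelial and pericyte genes, 15 were negative, with a median of -0.11. The lowest was Vwf, the clotting factor of vessel walls, which held 45.2 CPM in context replicate 1 and 8.98 to 19.1 CPM in the other 7 libraries. Choroid plexus and ependymal markers summed to 219 to 355 CPM in context and 191 to 345 CPM in CFC. Ttr, the choroid plexus transport protein, held 98.1, 13.4, 3.87 and 3.44 CPM in context and 7.18, 9.10, 38.3 and 15.4 CPM in CFC. Meningeal and fibroblast markers summed to 160 to 769 CPM in context and 224 to 694 CPM in CFC.

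Markers of neighbouring brain regions had medians of 0.02 for 17 subicular and neocortical genes and -0.03 for 12 thalamic genes. Of 15 medium spiny neuron genes, 11 were positive with a median of 0.09. At an unadjusted p under 0.05, 1 was higher and 0 were lower in both fits. Over all genes tested, 0.548% were higher at that p, and 0.772% with the replicate-set term. The medium spiny neuron markers summed to 475 to 521 CPM in context and 493 to 525 CPM in CFC. The part of blood, vessel or neighbouring tissue in the differences of single genes was not tested.

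Lists that follow the composition of the RNA had small medians. Of 40 ribosomal protein genes, 32 had positive log2 fold changes and the median was 0.05. Of 12 mitochondrially encoded genes, 11 were negative with a median of -0.05, and mt-Nd6, the 1 protein gene on the light strand, was the exception at 0.35. It held 64.2, 72.4, 81.2 and 95.6 CPM in context and 83.4, 114, 113 and 93.0 CPM in CFC. It was higher at an unadjusted p under 0.05 in both fits, and mt-Nd4l, named after its values were seen, was lower with the replicate-set term (-0.14). Of 10 long non-coding RNAs chosen as nuclear, 9 were negative with a median of -0.07. None of the genes of these 3 lists was called by edgeR.

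The 10 named genes with the smallest unadjusted p, at a level of at least 1 log2 CPM, included 5 that were higher and 5 that were lower in CFC, and all had an adjusted p of 1.0 in edgeR. Mylk3, a myosin light chain kinase known from heart muscle, held 2.70, 2.22, 2.46 and 2.39 CPM in context. In CFC it held 4.24, 3.63, 3.39 and 3.63 CPM, so the groups did not overlap. Its log2 fold change of 0.60 ± 0.16 (SE) had a 95% interval of 0.26 to 0.94 and an unadjusted p of 0.00178 in edgeR. These 10 genes were picked by p in this same comparison, so separate groups and intervals clear of 0 follow from the choice. Over all genes tested, 0.433% lay above and 0.394% below without overlap. Mcc, a regulator of the cell cycle and of Wnt signalling, held 16.1, 12.3, 12.8 and 15.7 CPM in context and 16.99, 19.3, 16.97 and 17.998 CPM in CFC. Its log2 fold change was 0.32 ± 0.09 (SE).

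The others on the higher side were Immp2l, a protease of the inner mitochondrial membrane (0.34), Pcdhga1, a clustered protocadherin of cell recognition (0.44), and Ankrd39 (0.28). The Pcdhga1 gene model overlaps other protocadherin genes of its cluster, so its counts are uncertain. On the lower side were Ano5 (-0.41), an anoctamin, and Nkd2 (-0.38), an inhibitor of Wnt signalling. Cacna1i, a T-type calcium channel (-0.27), Peak1, a pseudokinase (-0.25), and Dlc1, a GTPase activating protein of the cytoskeleton (-0.18), were lower as well. Nkd2 held 15.7, 16.6, 17.5 and 16.2 CPM in context and 9.33, 13.0, 14.2 and 14.5 CPM in CFC, again without overlap. Cacna1i held 62.3 to 85.4 CPM in context and 56.3 to 66.6 CPM in CFC.

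The smallest adjusted p of all belonged to 5830444B04Rik, a transcript of unknown function that was named after its values were seen. It lies on chromosome 4 from 155398763 to 155421704 on the minus strand (mm10) and is annotated as a processed transcript. Its counts were 30, 19, 14 and 21 in context and 9, 5, 6 and 4 in CFC, or 0.673 ± 0.167 CPM and 0.184 ± 0.0674 CPM (SD, n = 4). All CFC libraries were below all context libraries. This is a log2 fold change of -1.87 ± 0.30 (SE), with an interval of 0.176-fold to 0.427-fold. The adjusted p was 0.121 in edgeR, 0.167 with the replicate-set term, 0.230 in limma-voom and 0.048 in DESeq2. The gene overlaps Cfap74 on the other strand, and the strand setting used for counting was not given in the sources used here. Cfap74 itself held 15.9 ± 1.40 CPM in context and 16.2 ± 1.40 CPM in CFC.

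**Figure D5:**
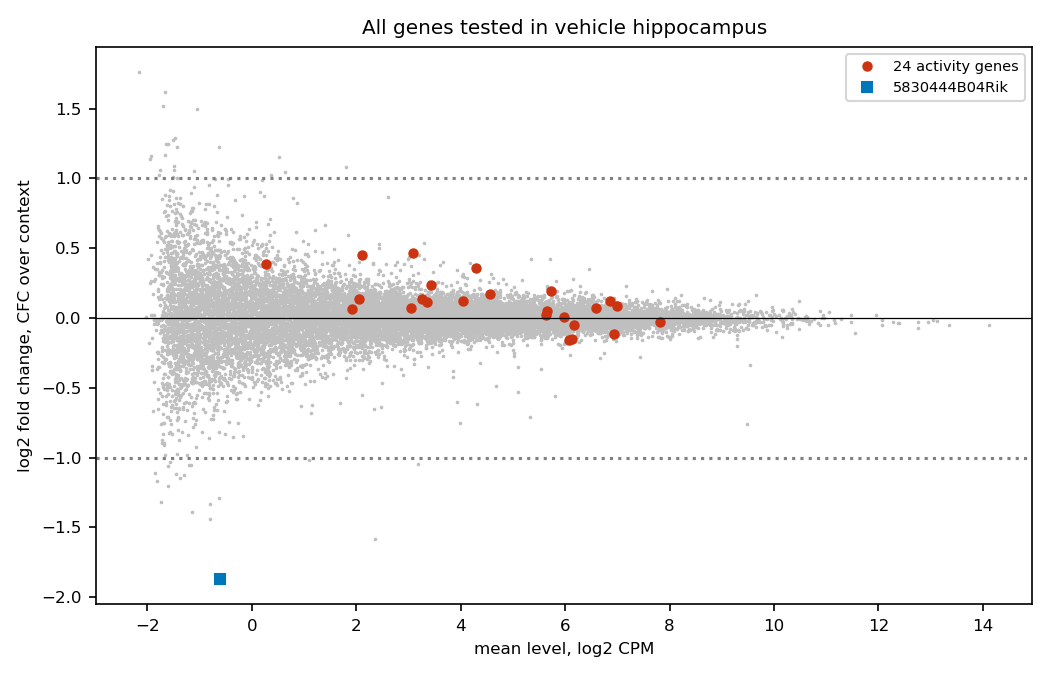
Log2 fold change (CFC over context) against mean level (log2 CPM over the 16 hippocampus libraries) of the 18261 genes tested, in grey. The 24 core activity genes are red circles and 5830444B04Rik is a blue square. Dotted lines mark 2-fold, and all 24 activity genes lie between them.

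The effect of conditioning in vehicle mice was then set against that in mice given CI-994, which shares no library with it. The edgeR test of the difference called 0 of 18261 genes (0%), with 390 (2.14%) at an unadjusted p under 0.05. DESeq2 called 1 gene and limma-voom 0. Of the 24 core genes 0 reached an unadjusted p under 0.05. In CI-994 mice the core log2 fold changes ran from -0.11 to 0.77, with 15 positive. Fos had 0.24 in vehicle and 0.49 in CI-994 mice, Junb 0.45 and 0.77, Npas4 0.47 and 0.27, and Nptx2 0.36 and 0.20. For Fos the ratio of the vehicle effect to the CI-994 effect had a 95% interval of 0.510 to 1.38. The transcript 5830444B04Rik had a log2 fold change of -1.87 in vehicle and 0.59 in CI-994 mice, and the difference of -2.46 ± 0.39 (SE) had an adjusted p of 0.103. CI-994 CFC replicates 2 and 4 held 5433 and 5237 CPM of the choroid plexus gene Ttr, against 10.9 and 5.05 CPM in replicates 1 and 3. Without replicates 2 and 4, edgeR called 0 genes for the difference, with 238 of 18712 (1.27%) at an unadjusted p under 0.05. That fit also holds fewer libraries, and the reason for the lower count was not tested.

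In the striatum of vehicle mice conditioning called 0 genes as well, with 216 at an unadjusted p under 0.05. The difference of the effect between hippocampus and striatum, fitted over all 32 libraries, called 0 of 19198 genes (0%) in edgeR, DESeq2 and limma-voom. At an unadjusted p under 0.05 there were 194 genes (1.01%), and 0 of the 24 core genes were among them. Core log2 fold changes in striatum ran from -0.41 (Nr4a2) to 0.47 (Junb), with 16 positive, and their standard errors reached 1.16. Striatal Nr4a2 held 34.7, 2.17, 6.45 and 37.3 CPM in context and 1.08, 2.70, 53.6 and 3.21 CPM in CFC. Its log2 fold change thus rests on a few high libraries. Nptx2, at 0.36 in hippocampus, had 0.00 in striatum, and the difference of 0.36 ± 0.33 (SE) was about the size of its error. The labels do not say whether a hippocampus and a striatum library come from 1 mouse, so this test treats the libraries as independent, and its errors do not account for shared mice. For 5830444B04Rik the log2 fold change in striatum was -0.97. The effect within replicates 3 and 4 was set against that within replicates 1 and 2, and edgeR called 0 genes (0%) for the difference, with 329 genes at an unadjusted p under 0.05 and 0 of the 24 core genes among them. DESeq2 called 3 genes for that difference, and limma-voom 0.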

How the data were processed

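The authors deposited raw read counts per gene of 54146 identifiers for the 32 libraries of the series, 900 ng RNA input and 100 bp reads per the labels. Per the submitters' processing notes the build was mm10 and the tools included DESeq2, STAR 2.6 and bcl2fastq 2.20.0. How reads were counted, and on which strand, was not given in the sources used here. Symbols and positions came from GENCODE mouse release M21, which matched 54079 identifiers. CPM is a count relative to the library total, per 1000000.

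An edgeR model (version 4.0.16, R 4.3.3) covered the 16 hippocampus libraries (4 group means, TMM scaling, filterByExpr, quasi-likelihood F test, two-sided), with Benjamini-Hochberg adjustment over all genes and an adjusted p of 0.05. The 95% intervals use the fit's standard errors. A second fit added replicates 1 and 2 against 3 and 4. Differences between drug groups and replicate sets used the same libraries, and the region difference used all 32. DESeq2 1.42.0 and limma 3.58.1 (voom) were alternatives, besides other scalings, filters, GC and length offsets, and left-out libraries. The procedures were tested on simulated counts without a replicate-set difference, so that test cannot speak to the effect of the replicate-set term. Named were the 24 core activity genes, the 10 genes of smallest p over 1 log2 CPM with a regular symbol, and the extremes of each of 33 lists. Members and lists were chosen with earlier results of these data known. Depth, at 27002334 to 36670767 counts, left a median standard error of 0.097 log2 for genes over 3 log2 CPM. P-values are taken against the spread between mice of a group. In the fit of group means, that spread includes the difference between replicate sets. An extreme of 1 list is not reported here.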

Additional observations from a re-analysis of the deposited data

Results flagged for a closer look

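In groups of 4 libraries, a library was marked where its gap to the nearest other took more of the group's range in CPM than Dixon's 95% critical value allows. Over 132 groups (context and CFC for each of 66 genes named in the text) this marked 13 libraries, where chance marks about 1 in 20 groups. Some of these genes were named because 1 library stood out, so the count is not an independent rate.

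Context replicate 1 was marked for 5 genes. Fosl2, an AP-1 partner, stood there at 78.7 CPM against 53.3 to 55.9 CPM in the other context libraries, and Ier3 at 6.58 CPM against 1.11 to 1.66 CPM. Ttr stood at 98.1 CPM against 3.44 to 13.4 CPM, Lcn2 at 19.3 CPM against 0.148 to 1.69 CPM, and Vwf at 45.2 CPM against 8.98 to 13.2 CPM. Context replicate 2 was marked for Crh, at 1.52 CPM. Context replicate 3 was marked for Homer1, at 244.3 CPM against 192 to 201 CPM, and for Xlr3b at 20.8 CPM and Xlr4a at 4.57 CPM. Context replicate 4 was marked for Gm48265 at 7.94 CPM, with 0 counts in the other context libraries, and CFC replicate 1 for the same gene at 0.030 CPM, which is 1 count. CFC replicate 3 was marked for Dlc1, at 58.2 CPM against 50.2 to 51.1 CPM, and for Rasl11b, the 1 low library, at 41.6 CPM against 48.9 to 50.1 CPM.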

How the results depend on the processing

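The count of genes called between CFC and context was 0 in edgeR under every scaling, filter, offset and left-out library tried. DESeq2's Wald test called 1 gene, 5830444B04Rik. With the replicate-set term the count was 0 under each alternative run except without the low-count filter, where it was 30. For the difference between vehicle and CI-994 mice it was 1 in DESeq2 and 0 to 1 when 1 library was left out, the 1 arising without context replicate 3 (5830444B04Rik). For the difference between replicate sets it was 3 in DESeq2 (Adcyap1, Efnb3 and Xlr4a), 58 without the low-count filter, and 0 to 1 when 1 library was left out, the 1 arising without context replicate 4 (Xlr4a). The region difference stayed at 0. The causes were not tested.

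Equal replicate numbers carry no stated pairing. Deviations from the group means correlated at 0.06, 0.18, 0.22 and 0.26 for numbers 1 to 4, and context replicate 1 correlated best with CFC replicate 2 (0.48). With a replicate block edgeR called 0 genes, with 307 at an unadjusted p under 0.05, of which 4 were core genes. The same block left 0 calls in the differences between drug groups, regions and replicate sets.

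Directions of small core differences changed in 43 gene and setting combinations and held in 461. With GC and length offsets Egr4 had a log2 fold change of -0.035, and in limma-voom Bdnf had -0.0047. In replicates 1 and 2 alone Homer1 had 0.035, Ptgs2 0.12, Dusp1 -0.042 and Per1 -0.025. In replicates 3 and 4 alone Fosl2 had 0.018, Egr3 -0.021, Egr4 -0.16, Nr4a2 -0.079, Bdnf -0.11 and Inhba -0.036. Leaving out 1 library at a time gave Fos -0.0024 to 0.57, Fosb -0.088 to 0.31, Egr1 -0.11 to 0.23, Egr2 -0.14 to 0.43, Egr3 -0.029 to 0.14 and Egr4 -0.097 to 0.21. It gave Nr4a2 -0.072 to 0.11, Arc -0.20 to 0.62, Homer1 -0.17 to 0.088, Bdnf -0.13 to 0.082, Inhba -0.13 to 0.32, Ptgs2 -0.16 to 0.053, Sik1 -0.12 to 0.44 and Per1 -0.061 to 0.26. Without CFC replicate 1, 10 of these 14 genes changed sign. The fit of the 2 groups alone with the replicate-set term was added after seeing the data and called 0 genes. A fit of the 2 groups alone was not run for the differences between drug groups and regions. Depth limits genes of low level, such as Ier2 and 5830444B04Rik, with 18 to 51 and 4 to 30 counts.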

Other observations

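The 3 genes of this paragraph were picked one by one after their values were seen, from no fixed list, and stand for no group. Eomes, which marks intermediate progenitors of the dentate gyrus, held 0.624, 0.741, 0.671 and 0.787 CPM in context and 2.36, 0.958, 0.968 and 1.31 CPM in CFC, so the groups did not overlap. Its log2 fold change was 0.99 ± 0.31 (SE, edgeR adjusted p = 1.0), and CFC replicate 1 was the highest library. Neurog2, a factor of neuronal commitment, held 0.340 to 0.518 CPM in context and 0.627 to 0.787 CPM in CFC. Nhlh1, which is expressed in young neurons, held 0.689 to 1.13 CPM in context and 1.16 to 1.605 CPM in CFC. In CI-994 mice the 3 log2 fold changes had the other sign, at -0.35, -0.30 and -0.40. None of the 3 genes was called in either comparison. Their levels are low, so depth limits them as well. Over all genes tested, the CFC libraries lay above the context libraries without overlap for 79 (0.433%).

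Some genes were high in the hippocampus and the striatum library that share treatment and number. Gm48265 held 7.94 CPM in hippocampus and 9.54 CPM in striatum of vehicle context replicate 4, and at most 0.036 CPM in the other 14 vehicle libraries. In CI-994 CFC replicate 4 it held 9.60 CPM in hippocampus and 12.9 CPM in striatum, and at most 0.0635 CPM in the other CI-994 libraries. Ier3 held 6.58 CPM in hippocampus and 6.49 CPM in striatum of vehicle context replicate 1. Xlr3b held 20.8 CPM in both regions of vehicle context replicate 3, and Xlr4a held 4.57 CPM in hippocampus and 2.37 CPM in striatum there. The labels do not say whether such libraries come from 1 mouse.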
